A study of Homo sapiens with 12 samples.

Results

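The transcriptome of the established hepatocellular carcinoma line HepG2 was compared between 240 min and 0 min of insulin stimulation. Both RNA-seq replicates titled 240 min and both titled 0 min were taken, which are 4 of the 12 libraries of the series. The other 8 are the RNA-seq libraries of 5, 10 and 30 min, which entered the same statistical model, and the chromatin immunoprecipitation of the insulin receptor with its input. Cells were grown in EMEM with 10% FBS, and the deposited treatment text gives 16 h in EMEM and then EMEM with BSA and 3 nM insulin. That text reads 5 min of insulin for each RNA library, those of 0 min included, so the times used here are those of the library titles. No culture kept for 240 min without insulin was analysed here, and insulin and the further time in culture cannot be told apart. Nothing in the labels says that replicates came from separate cultures, though the paper describes a single RNA-seq experiment on biologically independent samples. P-values measure the spread between libraries, and the labels do not show how far it is technical. In bulk RNA, fewer cells with a transcript and less of it per cell cannot be told apart.

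Insulin binds a receptor tyrosine kinase that signals through IRS proteins, PI3K and AKT, and through RAS and ERK. AKT keeps FOXO transcription factors out of the nucleus and activates mTORC1, which favours ribosome production and translation and restrains autophagy. In the liver this signalling is best known for lowering glucose output and raising lipid synthesis, and it is also a growth signal.

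Expression is given as CPM, the count of a gene relative to the size of its library after TMM scaling. A gene was called changed when the quasi-likelihood test of edgeR gave it an adjusted p-value (Benjamini-Hochberg, over all genes tested) under 0.05, and "rose" and "fell" are used for such genes. Of 26364 genes with a name, 13852 passed the filter on low counts and were tested. The 0 min libraries held 21692103 and 45005769 counts on genes and the 240 min libraries 24806240 and 18347109. The labelled cell type was borne out by its markers, as 9 of 9 hepatocyte genes were detected, with ALB between 13892 and 20238 CPM. Of 6 fibroblast and stellate markers 4 were under 1 CPM in every library, and CDH5, KDR, PTPRC and CD3E were at or near 0. Of the other markers of these cell types, PDGFRB had 13.7 and 13.7 CPM at 0 min and 10.3 and 8.52 CPM at 240 min and fell (-0.53), CD68 had 45.3 and 40.0 CPM at 0 min and 42.0 and 41.0 CPM at 240 min and was not called, and PECAM1 had 2.56 to 3.00 CPM and was not called. The immune marker LYZ was high, with 6432 and 5878 CPM at 0 min and 4804 and 4945 CPM at 240 min, and was the source of nearly all of the summed level of the 5 immune markers.

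At 240 min 5676 genes (41% of those tested) had changed, 2847 higher (20.6%) and 2829 lower (20.4%). Changes were mostly small. The median size among called genes was 0.35 on the log2 scale, 1589 changed by at least 0.5, 340 by at least 1 (212 higher and 128 lower) and 25 by at least 2. Many of the 340 were genes of low level. The 212 had a median level of 1.12 CPM and the 128 of 2.36 CPM, against 23.8 CPM over all genes tested. The libraries of the 2 times did not overlap for 5658 of the 5676 called genes, where 34.8% of all genes tested had both 240 min libraries above both 0 min libraries and 34.9% had both below. The 92 ERCC spike-in transcripts took 1.59% of counts in each 0 min library and 1.65% and 1.91% at 240 min. When libraries were scaled by these spike-ins, the median of all genes moved to -0.12 on the log2 scale and 1059 genes were called (7.65%), 331 higher (2.39%) and 728 lower (5.26%). All of these were among the 5676 and had the same direction. With limma on the authors' TPM values 60.2% to 60.7% of called genes were higher, against 50.2% here. Counts with spike-in scaling are given beside each class below. Some calls named below were lost with DESeq2, those of AMOTL1, ATG3, AXL, BCL2L11, BHLHE41, CCNA2, CXCL2, CYP1A2, EGR3, GADD45A, HIST1H3D, IRS2, NPM3, PLK3, RPL39, RPL7 and ZNF880. Calls of genes picked for naming with their values known were not followed in this way.

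Of the 43 genes of nucleolar ribosome biogenesis 34 rose and 2 fell, and of 19 tested FOXO targets outside glucose production 14 fell and 2 rose. Among genes of DNA replication 22 of 40 rose, whereas 15 of 28 mitotic genes fell. Of 75 genes that encode the cytosolic ribosomal proteins themselves 31 fell and 3 rose. In 3 classes of secreted liver proteins 27 of 88 genes fell and 2 rose, but with spike-in scaling 0, 0 and 1 fell. Over all genes tested 20.6% rose and 20.4% fell.

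**Figure D1:**
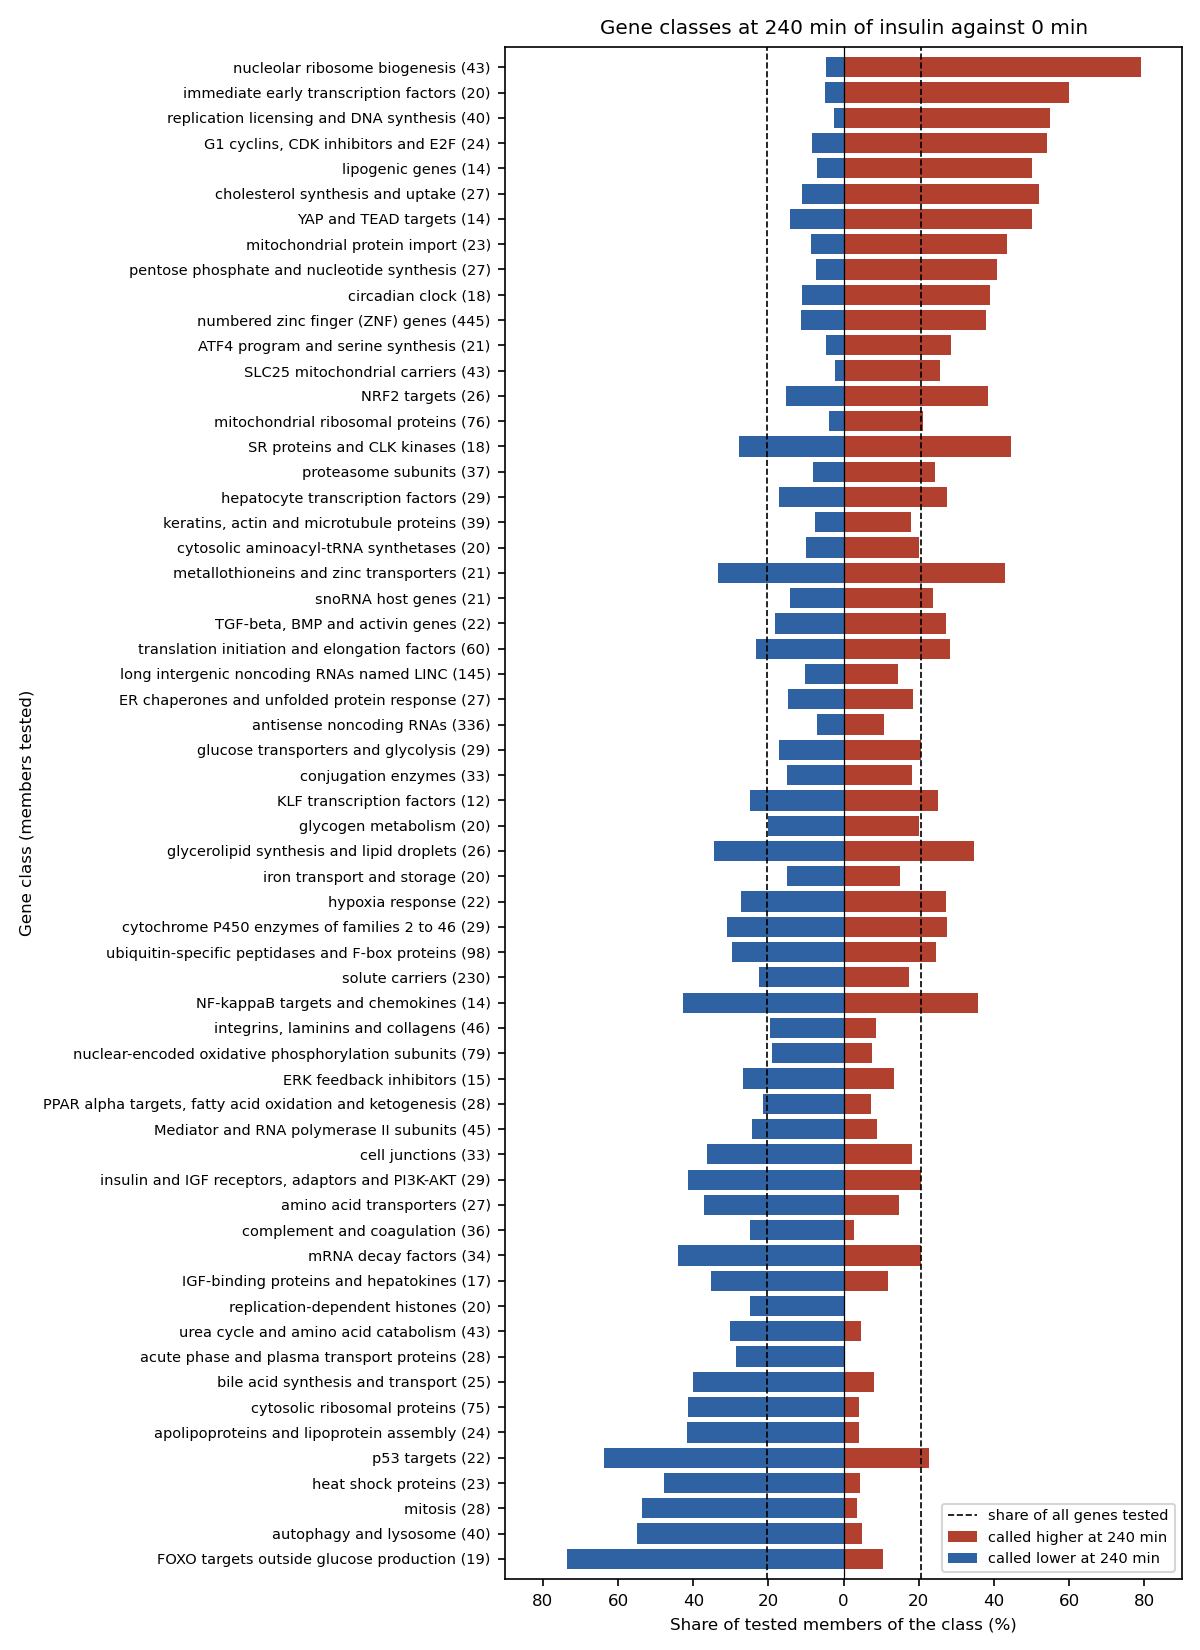
Share of the tested members of each gene class that were called higher (right, red) or lower (left, blue) at 240 min against 0 min, for the classes with at least 12 tested members. Dashed lines mark the shares over all genes tested, 20.6% higher and 20.4% lower. Nucleolar ribosome biogenesis is at the top with 79.1% higher, and FOXO targets outside glucose production are at the bottom with 73.7% lower.

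The 15 largest rises and 15 largest falls were taken from called genes without overlap. Genes in this ranking had a mean of at least 5 CPM over the 4 libraries compared. Within it the largest fall was in C10orf10 (now DEPP1, chromosome 10, 45471709 to 45474330 in hg19, minus strand), a FOXO-induced gene of fasting and hypoxia. Its levels were 88.3 and 97.6 CPM at 0 min and 7.28 and 7.52 CPM at 240 min. Both 240 min libraries lay far below both 0 min libraries, a 12.6-fold fall (log2 fold change -3.66, standard error 0.089, adjusted p = 3.88e-16, edgeR). IGFBP1 (chromosome 7, 45927959 to 45933267 in hg19, plus strand), which encodes a secreted binding protein of insulin-like growth factors and is a classical insulin-repressed gene of liver, had 270.1 and 290.2 CPM at 0 min and 36.7 and 39.9 CPM at 240 min. The groups were again far apart, with a 7.35-fold fall (log2 fold change -2.88, standard error 0.067, adjusted p = 3.63e-16, edgeR). Both were also called at 10 and 30 min. C10orf10 had 91.7 and 87.5 CPM at 5 min, 64.9 and 60.9 CPM at 10 min and 62.3 and 54.2 CPM at 30 min, and IGFBP1 had 266 and 272 CPM at 5 min, 188 and 215 CPM at 10 min and 222 and 217 CPM at 30 min, so that every library from 10 min on lay below both 0 min libraries. Of the 30 genes with the largest rises and falls, 4 were also called at 30 min (C10orf10, IGFBP1, ZNF367 and EGR1). These comparisons share the 0 min libraries.

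The next falls were in FST, which encodes the activin antagonist follistatin and went from 128 ± 4.52 CPM (SD, n = 2) to 30.4 ± 0.790 CPM (SD, n = 2), in G6PC, the glucose-6-phosphatase, and in FAXDC2, KLHL24 and HBP1. FST fell 4.20-fold (log2 fold change -2.07, standard error 0.061, adjusted p = 9.15e-15, edgeR). KLHL24, an adaptor of a cullin ubiquitin ligase, had 34.1 and 40.9 CPM at 0 min and 9.12 and 9.52 CPM at 240 min. HBP1, an HMG-box repressor of cell cycle genes, had 53.8 and 60.1 CPM at 0 min and 14.8 and 15.8 CPM at 240 min. The fall was 4.08-fold for KLHL24 and 3.75-fold for HBP1. YPEL2 and YPEL3, of the yippee family, fell 3.33-fold and 3.10-fold, and CCNG2, the cyclin G2 that slows the cell cycle, fell 3.22-fold. UBALD2, SLC1A2, PLSCR4, DLGAP1-AS1 and PIM1 complete the 15, with falls of 3.20, 3.14, 2.84, 2.79 and 2.74-fold. SLC1A2 is a glutamate transporter and PIM1 a serine/threonine kinase. DLGAP1-AS1 lies antisense to another gene, and reads were assigned to strands by the authors.

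**Figure D2:**
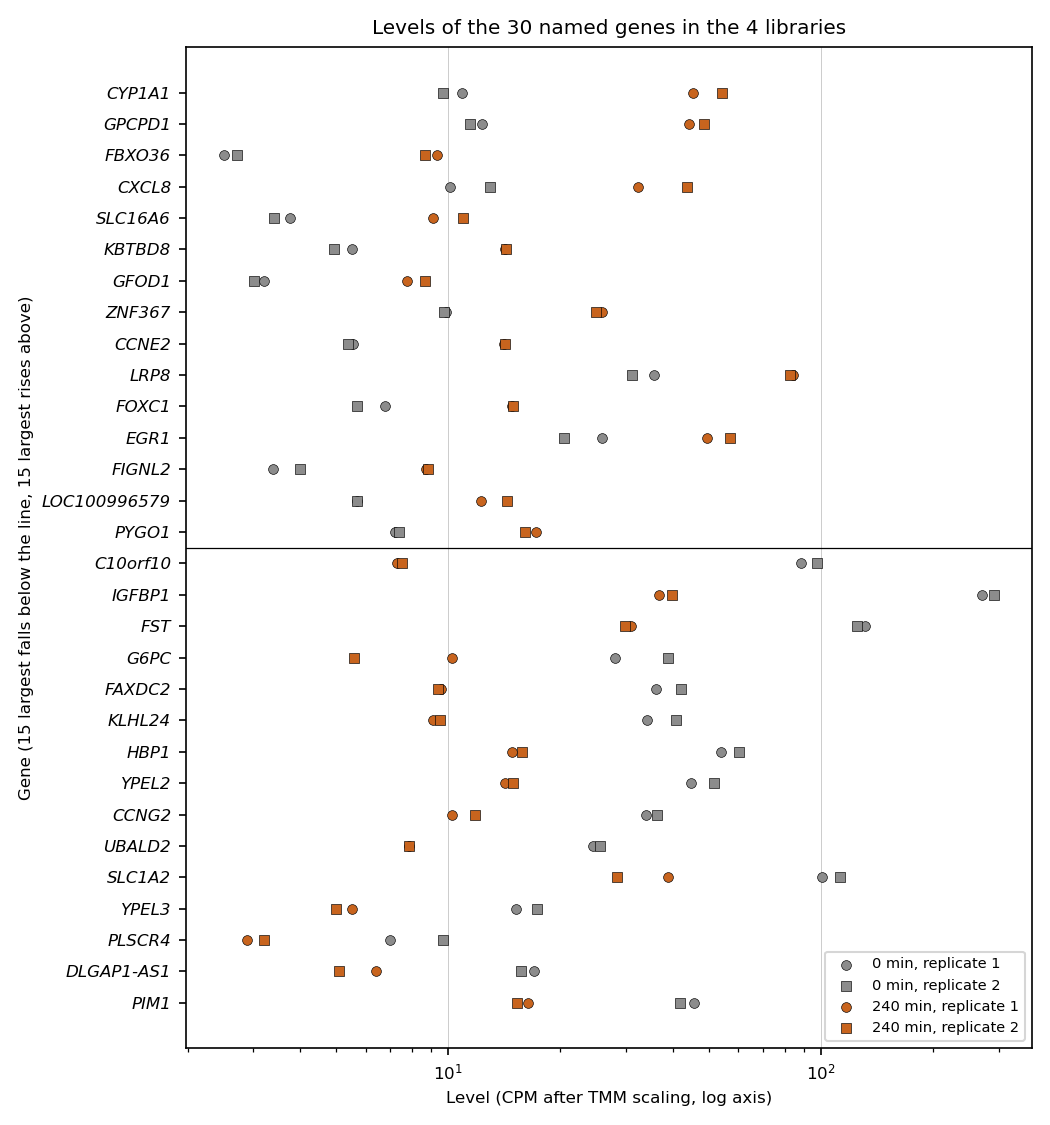
Levels in CPM on a log axis of the 15 genes with the largest rise (above the line) and the 15 with the largest fall (below it) at 240 min, in the 2 libraries of 0 min (grey) and the 2 of 240 min (orange), with circles for replicate 1 and squares for replicate 2. That the groups do not overlap was a condition for choosing the 30 genes, and the widest gap is that of C10orf10.

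Promoters were examined because FOXO factors are inactivated by insulin signalling. RefSeq promoter sequences of GRCh38.p14, 250 bases before to 50 after a start, were found for 10812 of the tested genes. A FOXO motif was taken as TGTTTAC or TATTTAC on either strand. It occurred in 6.05% of all promoters in the table, in 3.81% of those of tested genes, in 5.05% of genes that fell and 3.33% of genes that rose. Among genes that fell by at least 1 on the log2 scale 10 of 95 had a match (10.5%), and among genes that rose by as much 5 of 139 (3.597%). The 10 genes were C10orf10, HBP1, YPEL3, BTBD8, HIST1H3D, PLEKHM3, MGAM, SSTR5, TMEM140 and LGSN, of which most were picked for naming with their values known. HIST1H3D was under 1 CPM and lost its call in 9 of 17 other settings. MGAM, BTBD8, SSTR5 and LGSN were low as well, with means of 0.420, 1.13, 1.26 and 2.04 CPM at 0 min. The means of C10orf10, HBP1, YPEL3, PLEKHM3 and TMEM140 at 0 min lay between 16.2 and 93.0 CPM. In YPEL3 the match lay in the 50 bases after the start. No match says only that these letters are not in this window, and a match is a description and not a bound site. The 250 bases before the start are shown for the 2 with a match there among the 13 of the 15 largest falls that had an entry in the table (IGFBP1 and SLC1A2 had none), both of the form GTAAACA, with the match in capitals. C10orf10 (DEPP1) is at chr10:44978810-44979059, minus strand, with the match starting 180 bases before the start, and HBP1 at chr7:107168753-107169002, plus strand, with the match 173 bases before it.
DEPP1: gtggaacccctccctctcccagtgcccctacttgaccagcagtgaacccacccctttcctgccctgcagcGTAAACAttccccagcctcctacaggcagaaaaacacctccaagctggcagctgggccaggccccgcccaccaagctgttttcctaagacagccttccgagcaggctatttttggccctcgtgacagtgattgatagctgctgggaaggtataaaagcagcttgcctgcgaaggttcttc
HBP1: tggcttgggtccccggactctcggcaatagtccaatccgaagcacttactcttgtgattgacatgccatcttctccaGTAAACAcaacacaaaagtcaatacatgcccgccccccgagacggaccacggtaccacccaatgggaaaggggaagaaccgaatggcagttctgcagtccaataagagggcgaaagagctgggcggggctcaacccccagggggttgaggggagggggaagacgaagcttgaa

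Among the 24 FOXO targets listed outside glucose production, 19 were tested, 14 fell and 2 rose, with a median log2 fold change of -0.33 against -0.00257 over all genes tested. C10orf10 is one of these targets. FBXO32, which encodes the ubiquitin ligase atrogin-1, fell by 1.48 on the log2 scale (from 2.48 to 0.912 CPM), and CCNG2 fell by 1.69. The death ligand TNFSF10 fell by 0.81, and KLF15, a fasting factor of amino acid catabolism, fell by 0.77. TXNIP (-0.70) and BCL6 (-0.69) fell as well. GADD45A and BCL2L11 rose by 0.23 and 0.18, and with any 1 library left out at most 1 member rose while 12 to 14 fell. With spike-in scaling 9 fell and 0 rose. Of the genes named here, TNFSF10 and BCL6 were picked for naming with their values known. The median of the class was 0.07, -0.01 and 0.04 at 5, 10 and 30 min.

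Of 29 tested genes of insulin and IGF receptors, adaptors and the PI3K-AKT pathway 12 fell and 6 rose (median -0.15, and 6 fell and 1 rose with spike-in scaling). The 12 and 6 are 41.4% and 20.7%, beside 20.4% and 20.6% of all genes. Besides INSR (-0.61), the genes that fell included IGF1R (-0.59), the adaptors IRS1 (-0.47) and IRS2 (-0.82), the catalytic subunits PIK3CD (-0.72) and PIK3CA (-0.53) and the kinase PDPK1 (-0.59), which activates AKT. Of these, IGF1R, IRS1, PIK3CA and PDPK1 were picked for naming with their values known. IRS2 was low, from 1.77 to 0.967 CPM, and lost its call in 8 of 17 other settings. PIK3R3 and PIK3R1, regulatory subunits of PI3K, rose by 1.08 and 0.44, and TRIB3, a pseudokinase that binds AKT, by 0.64. PIK3R3 had 13.8 and 12.8 CPM at 0 min and 28.1 and 27.9 CPM at 240 min, so that the groups were 2.12-fold apart.

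Immediate early transcription factors, which growth factors induce without new protein synthesis, were among the genes with the largest class median at 240 min. Of 20 tested members 12 rose and 1 fell, with a median of 0.73, and 9 rose and 0 fell with spike-in scaling. EGR1 (chromosome 5, 137801181 to 137805004 in hg19, plus strand) had 25.8 and 20.5 CPM at 0 min and 49.5 and 56.9 CPM at 240 min (log2 fold change 1.22, standard error 0.12, adjusted p = 1.25e-07, edgeR). In between it had 21.6 and 21.6 CPM at 5 min, 14.49 and 15.4 CPM at 10 min and 47.5 and 34.3 CPM at 30 min, so its levels at 30 and 240 min were above those at 5 and 10 min. JUN had 46.4 and 48.0 CPM at 0 min and 97.8 and 96.4 CPM at 240 min and was 2.05-fold higher, with 240 min replicates close to each other. FOS, FOSB, EGR3 and NR4A2 rose by 1.38, 1.75, 1.46 and 1.93 on the log2 scale, but from low levels of 0.445 to 1.85 CPM. FOSL2 was the member that fell (-0.37). FOSB had 4.08 CPM in 240 min replicate 1 and 1.52 in replicate 2, and it was not called without the former. EGR3 was not called without 0 min replicate 2. The class medians were -0.10, -0.13 and 0.07 at 5, 10 and 30 min. A single spelling of the SRF box, a 10-base sequence to which serum response factor binds, was searched on either strand. Its letters are the capitals in the sequence printed here. Other spellings were not searched, so further boxes, in EGR1 as well, are not counted. This spelling was found in the promoters of 6 of the 10812 tested genes and 10 of the 27305 promoters of the table (0.0366%). Among the genes that rose by at least 1 on the log2 scale only EGR1 had it, at chr5:138465229-138465478 of GRCh38.p14, plus strand, with the box in capitals and starting 105 bases before the start.
EGR1: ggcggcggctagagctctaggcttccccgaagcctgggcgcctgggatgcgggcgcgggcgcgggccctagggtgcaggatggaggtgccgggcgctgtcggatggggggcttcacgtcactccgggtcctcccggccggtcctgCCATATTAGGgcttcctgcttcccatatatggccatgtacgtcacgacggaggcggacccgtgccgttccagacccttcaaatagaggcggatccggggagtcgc

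Of 15 feedback inhibitors of ERK signalling 2 rose (IER3 0.78 and DUSP7 0.51) and 4 fell (1 and 1 with spike-in scaling). The 2 and 4 are 13.3% and 26.7%, beside 20.6% and 20.4% of all genes, and the class median was 0.01. Falls were largest in DUSP5 (-0.63), ERRFI1 (-0.42) and SPRED2 (-0.41). DUSP6 (-0.21), the phosphatase of ERK, was picked for naming with its value known. Among 14 tested YAP and TEAD targets 7 rose and 2 fell (1 and 1 with spike-in scaling). The largest rises were in F3, the tissue factor, which went from 6.57 ± 0.106 CPM (SD, n = 2) to 14.45 ± 0.310 CPM (SD, n = 2) (log2 fold change 1.13, standard error 0.10, adjusted p = 5.18e-08, edgeR), and, from a low level, in AMOTL1 (0.87), whose call was lost in 7 of 17 settings. AXL (-0.57), whose call was lost in 9 of 17 settings, and CTGF (-0.26) fell. Of 14 NF-kappaB targets and chemokines 5 rose and 6 fell (2 and 0 with spike-in scaling). CXCL8, which encodes interleukin 8, was one of the 15 largest rises, with 10.1 and 12.98 CPM at 0 min and 32.2 and 43.7 CPM at 240 min. CXCL2 rose by 1.53 from 0.308 CPM, a call lost with DESeq2, whereas NFKB2, ICAM1 and TNFAIP3 fell by 0.37, 0.32 and 0.23. In the TGF-beta, BMP and activin list 6 of 22 rose, led by the inhibin subunits INHBE (0.93) and INHBB (0.87) and the SMAD corepressor SKIL (0.60), and 4 fell, led by FST (2 and 1 with spike-in scaling). The 6 and 4 are 27.3% and 18.2%, beside 20.6% and 20.4% of all genes.

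The largest rise was in CYP1A1 (chromosome 15, 75011883 to 75017877 in hg19, minus strand), the cytochrome P450 of polycyclic aromatic hydrocarbons that the aryl hydrocarbon receptor induces. Its levels were 10.9 and 9.65 CPM at 0 min and 45.2 and 54.4 CPM at 240 min. Both 240 min libraries were above 4 times the highest 0 min library, and the rise was 4.89-fold (log2 fold change 2.29, standard error 0.11, adjusted p = 1.21e-11, edgeR). It had 10.1 and 7.42 CPM at 5 min, 10.2 and 10.8 CPM at 10 min and 10.4 and 10.4 CPM at 30 min, within or below the range of 0 min. Of 8 tested targets of the receptor 5 rose and 0 fell (3 and 0 with spike-in scaling). CYP1A2 rose by 1.80 from 0.159 CPM, a call lost with DESeq2 and without 240 min replicate 1, and SLC7A5, an amino acid transporter that belongs to several lists, by 0.71. The other large rises were in GPCPD1 (from 11.9 to 46.4 CPM), which splits glycerophosphocholine, FBXO36, SLC16A6, KBTBD8, GFOD1, ZNF367, CCNE2, LRP8, FOXC1, FIGNL2, LOC100996579 and PYGO1, between 2.28 and 3.92-fold. GPCPD1 had 12.3 and 11.5 CPM at 0 min and 44.2 and 48.5 CPM at 240 min. LRP8, a receptor of apolipoprotein E and reelin, had 35.7 and 31.1 CPM at 0 min and 84.4 and 82.4 CPM at 240 min. For both the spread between replicates was small beside the distance between the times. SLC16A6 is a monocarboxylate transporter, KBTBD8 a cullin adaptor and PYGO1 a cofactor of Wnt transcription.

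The 43 nucleolar ribosome biogenesis genes, which encode factors that transcribe, process and assemble ribosomal RNA, all passed the filter. They had a median log2 fold change of 0.43, 34 rose and 2 fell, and 31 to 33 rose with any 1 library left out. With spike-in scaling 5 rose and 0 fell, with a median 0.433 above that of all genes on the log2 scale. RRS1, an assembly factor of the large subunit, had 31.0 and 27.9 CPM at 0 min and 57.0 and 54.6 CPM at 240 min, and UTP15, of the small subunit processome, had 29.5 and 27.9 CPM at 0 min and 52.4 and 51.7 CPM at 240 min. LYAR had 37.7 and 35.3 CPM at 0 min and 71.0 and 61.0 CPM at 240 min. In all 3 genes both 240 min libraries were well above both 0 min libraries, with log2 fold changes of 0.93, 0.87 and 0.87. The rise took in box C/D snoRNP proteins (NOP58 0.68, NOP56 0.61), the helicases DDX21 (0.61) and DDX18 (0.45), subunits of RNA polymerase I (POLR1B 0.55, POLR1C 0.39, POLR1A 0.23) and its factor UBTF (0.54), and the abundant nucleolar protein nucleolin (NCL, from 1565 to 2166 CPM), all picked for naming with their values known. NPM3 (-0.25) and POLR1D (-0.25) fell, and NPM3 lost its call in 7 of 17 other settings. At 5, 10 and 30 min the medians of the class were between -0.02 and 0.01.

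Of 77 genes of cytosolic ribosomal proteins 75 were tested, 31 fell and 3 rose, with a median of -0.11. The median of the class was already -0.087 at 5 min, when 0 genes of all tested were called. It was -0.0085 and -0.043 at 10 and 30 min. Falls were small, as for RPLP0 with 442 and 446 CPM at 0 min and 401 and 389.9 CPM at 240 min, picked for naming with its value known. RPS29 (-0.50) and RPL39 (-0.47) fell further. The count of falls was 18 without 0 min replicate 1, and 5 with spike-in scaling. With limma on TPM 9 fell and 1 rose. The 3 genes that rose, RPL7, RPS28 and RPS3A, had means of 0.499, 1.10 and 15.7 CPM at 0 min, against 444 for RPLP0, and reads of ribosomal protein genes can be shared with their many processed copies, so these values are uncertain. Among 76 genes of mitochondrial ribosomal proteins 16 rose (21.1%, about the 20.6% of all genes) and 3 fell (3.95%), led by MRPS17 (0.46), with a median of 0.05 that was -0.07 with spike-in scaling, where 0 passed. Among 60 initiation and elongation factors 17 rose, led by the cap-binding protein EIF4E (0.60), and 14 fell, led by the kinase EIF2AK4 (-0.32). These are 28.3% and 23.3%, beside 20.6% and 20.4% of all genes, and 0 rose and 0 fell with spike-in scaling. In mitochondrial protein import 10 of 23 rose and 2 fell (2 and 0 with spike-in scaling, and 5 and 3 without 0 min replicate 2), with TIMM8A at 8.68 and 9.12 CPM at 0 min and 14.6 and 15.8 CPM at 240 min. Of 43 SLC25 mitochondrial carriers 11 rose and 1 fell (1 and 0 with spike-in scaling), led by the calcium-regulated ATP carrier SLC25A25 (0.93) and the folate carrier SLC25A32 (0.68). The 11 and 1 are 25.6% and 2.33%, beside 20.6% and 20.4% of all genes.

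**Figure D3:**
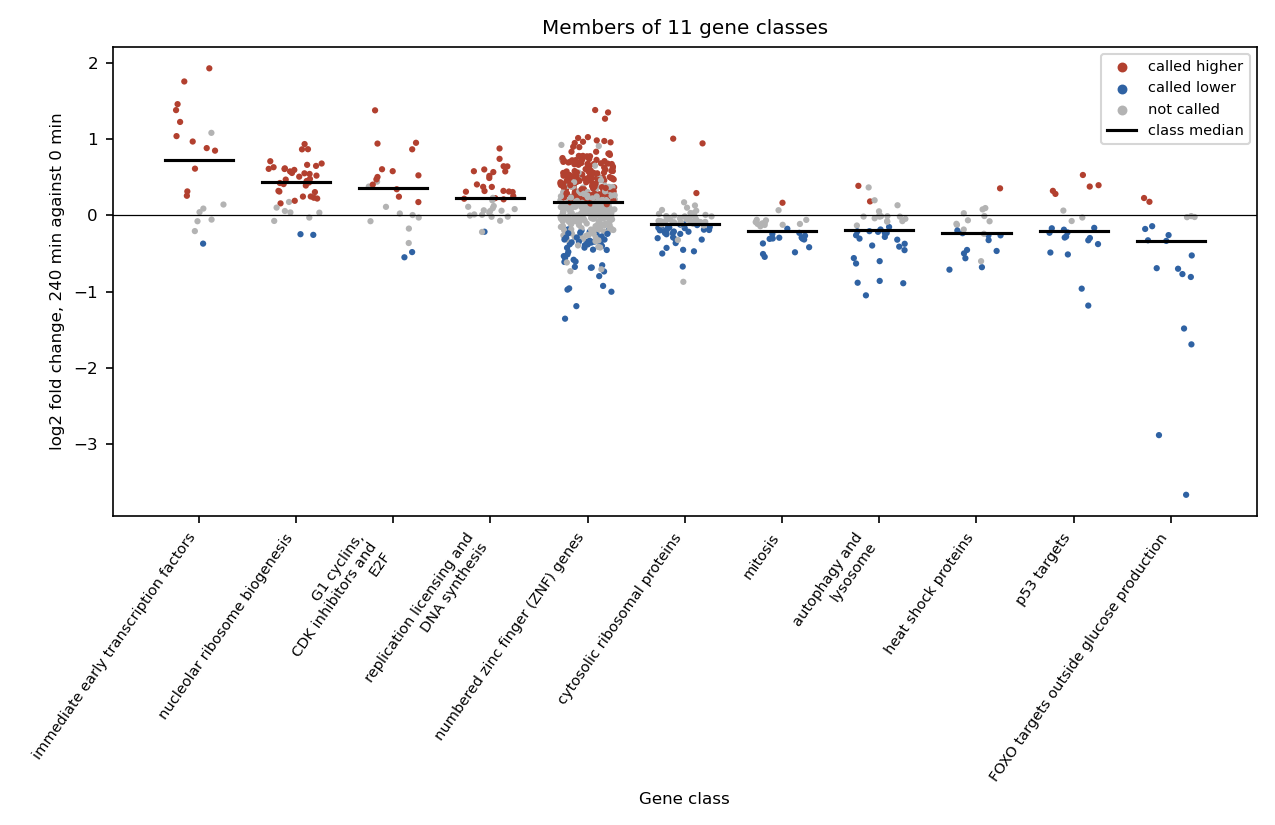
Log2 fold change at 240 min against 0 min of each tested member of 11 gene classes, coloured by call (red higher, blue lower, grey not called), with the class median as a bar. The class median is 0.43 for nucleolar ribosome biogenesis and -0.11 for cytosolic ribosomal proteins, and the lowest point is C10orf10 among the FOXO targets.

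Cell cycle genes differed in direction between lists. In the list of G1 cyclins, CDK inhibitors and E2F factors 13 of 24 rose and 2 fell (4 and 2 with spike-in scaling). CCNE2, the cyclin E2 that drives entry into S phase, had 5.57 and 5.39 CPM at 0 min and 14.2 and 14.2 CPM at 240 min, a 2.596-fold rise with replicates close together. CCNE1, picked for naming with its value known, rose by 0.87, the phosphatase CDC25A by 0.94 and CCND2 by 0.95 on the log2 scale. The 2 that fell were the pocket proteins RBL2 (-0.55) and RB1 (-0.48), which hold E2F in check, with RBL2 at 161 and 171 CPM at 0 min and 113 and 115 CPM at 240 min. Of 40 genes of replication licensing and DNA synthesis 22 rose and 1 fell, with a median of 0.23. CDC6, which loads the replicative helicase, had 64.6 and 57.1 CPM at 0 min and 114 and 108 CPM at 240 min, and MCM10 had 28.9 and 26.2 CPM at 0 min and 46.3 and 45.0 CPM at 240 min. The groups were 1.84-fold and 1.67-fold apart. UHRF1 rose by 0.64 and POLA1 fell by 0.21. With spike-in scaling 2 rose and 0 fell. In contrast, of 28 genes of mitosis 15 fell and 1, CCNA2 (0.17), rose, with a median of -0.20. The kinases TTK and NEK2 and the kinesin KIF20A fell most. TTK had 37.1 and 38.1 CPM at 0 min and 25.5 and 26.3 CPM at 240 min, KIF20A 65.0 and 61.2 CPM at 0 min and 46.7 and 41.5 CPM at 240 min and NEK2 35.3 and 34.0 CPM at 0 min and 25.3 and 24.1 CPM at 240 min. The groups did not overlap in any of the 3, with log2 fold changes of -0.54, -0.51 and -0.48. The median was -0.32 with spike-in scaling, where 3 fell. Pentose phosphate and nucleotide synthesis genes rose in 11 of 27 and fell in 2 (0 and 0 with spike-in scaling), led by PRPS2 (0.65), DHODH (0.46) and CTPS1 (0.42), with a median of 0.01.

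Of 40 tested genes of autophagy and the lysosome 22 fell and 2 rose, with a median of -0.20. ULK1, the kinase that starts autophagy and that mTORC1 inhibits, had 24.6 and 24.2 CPM at 0 min and 11.7 and 11.9 CPM at 240 min, with no overlap (log2 fold change -1.05, standard error 0.090, adjusted p = 3.57e-08, edgeR). RB1CC1, its scaffold partner, had 154 and 159.8 CPM at 0 min and 86.6 and 82.7 CPM at 240 min, and NBR1, a cargo receptor, had 395 and 433 CPM at 0 min and 229.7 and 219.8 CPM at 240 min. These are 1.85-fold and 1.84-fold falls. ATG2A (-0.86), GABARAPL1 (-0.63), ATG2B (-0.60) and WIPI2 (-0.56) fell as well, named with their values known, and ATG16L1 (0.39) and ATG3 (0.18) rose. The number that fell was 15 without 0 min replicate 2, 14 without 240 min replicate 1 and 8 with spike-in scaling.

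Heat shock proteins fell in 11 of 23 and rose in 1 (6 and 0 with spike-in scaling), with a median of -0.23. CHORDC1, a cochaperone of HSP90, had 48.0 and 49.0 CPM at 0 min and 29.8 and 29.6 CPM at 240 min. HSPA1A, an inducible HSP70 whose near-identical copy HSPA1B could share its reads, fell by 0.68, and DNAJB4 by 0.56, whereas HSF2 rose by 0.35. Among chaperones of the endoplasmic reticulum 5 of 27 rose and 4 fell (18.5% and 14.8%), near the shares over all genes, and 0 and 1 with spike-in scaling. Targets of p53 fell in 14 of 22 and rose in 5 (4 and 0 with spike-in scaling), with TP53INP1, a stress protein that binds autophagy factors, at 111 and 114 CPM at 0 min and 45.8 and 54.0 CPM at 240 min and BBC3, the death protein PUMA, at -0.96 on the log2 scale. Without 0 min replicate 2, 6 fell, and the number was also 6 when 240 min replicate 1 was left out. The 14 and 5 are 63.6% and 22.7%, beside 20.4% and 20.6% of all genes. The rises were led by BTG2 (0.53), TIGAR (0.40) and PLK3 (0.38). NRF2 targets rose in 10 of 26 and fell in 4 (4 and 2 with spike-in scaling), where SRXN1, the sulfiredoxin, had 97.8 and 86.1 CPM at 0 min and 195 and 198 CPM at 240 min, OSGIN1 rose by 1.09 and HMOX1, heme oxygenase, by 0.87. AKR1C1 (-0.53) led the falls. Of 21 metallothioneins and zinc transporters 9 rose and 7 fell (5 and 3 with spike-in scaling). The metallothionein MT1X was low and had 2.13 and 1.26 CPM at 0 min and 6.04 and 8.15 CPM at 240 min. MT1X, MT1G and MT1E rose by 2.15, 1.63 and 1.41 on the log2 scale, and the importers SLC39A14, SLC39A10 and SLC39A4 fell by 0.69, 0.57 and 0.43. MT1E had 4.80 CPM in 240 min replicate 1 and 9.62 in replicate 2. Metallothionein genes are close copies that may share reads.

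**Figure D4:**
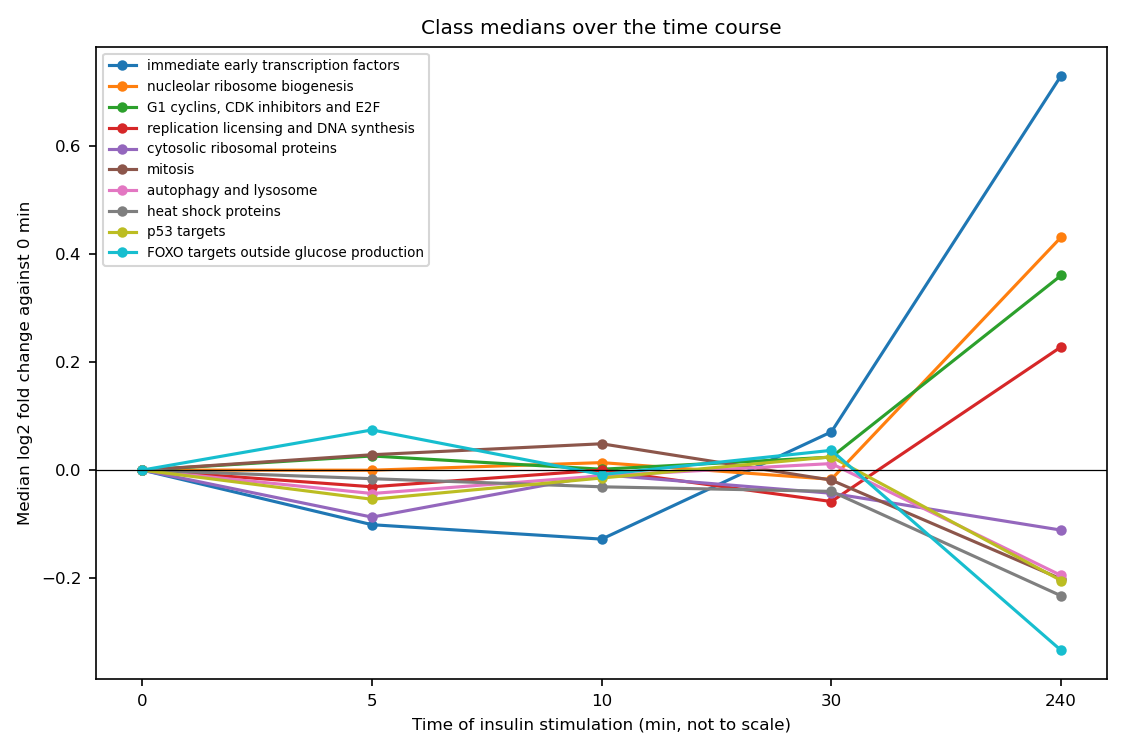
Median log2 fold change against 0 min of the tested members of 10 gene classes at 5, 10, 30 and 240 min of insulin, with the times spaced evenly. All comparisons share the 0 min libraries. The medians lie between -0.13 and 0.08 up to 30 min, and at 240 min they range from -0.33 for FOXO targets to 0.73 for immediate early transcription factors.

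In lipid metabolism beyond fatty acid synthesis, 14 of 27 tested genes of cholesterol synthesis and uptake rose and 3 fell (3 and 0 with spike-in scaling). HMGCS1, HMG-CoA synthase, had 991 and 802 CPM at 0 min and 2046 and 1899 CPM at 240 min, so the groups were 2.202-fold apart, and IDI1, an isomerase of the pathway, rose by 0.91. SCAP (-0.35), which escorts SREBP proteins, led the falls. Glycerolipid and lipid droplet genes rose in 9 and fell in 9 of 26 (1 and 3 with spike-in scaling), led by GPCPD1 upward and LPIN3 (-0.53) downward. Of 28 tested genes of fatty acid oxidation, ketogenesis and PPAR alpha 6 fell, led by BDH1 (-0.68), and 2 rose, shares of 21.4% and 7.14% beside 20.4% and 20.6% over all genes, and 2 fell and 0 rose with spike-in scaling.

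Amino acid transporters fell in 10 of 27 and rose in 4 (4 and 1 with spike-in scaling). SLC38A2, the amino acid-responsive transporter SNAT2, was abundant and had 1834 and 1839.7 CPM at 0 min and 834 and 929 CPM at 240 min, a 2.08-fold fall without overlap (log2 fold change -1.06, standard error 0.057, adjusted p = 8.19e-11, edgeR). SLC38A4 fell by 0.69. SLC7A5 and SLC3A2, which form a transporter of large neutral amino acids, rose by 0.71 and 0.34. Of the ATF4 program and serine synthesis 6 of 21 rose (28.6%, beside 20.6% of all genes, and 2 with spike-in scaling). The rises were led by the secreted glycoprotein STC2 (1.10) and the mTORC1 inhibitor DDIT4 (0.91), and SESN2 (-0.51) fell. In the urea cycle and amino acid catabolism 13 of 43 fell and 2 rose (6 and 0 with spike-in scaling). The 13 and 2 are 30.2% and 4.65%, beside 20.4% and 20.6% of all genes. GPT2, the mitochondrial alanine aminotransferase, had 329 and 326 CPM at 0 min and 186 and 184 CPM at 240 min, and TAT (-0.80) and CPS1 (-0.46), the first enzyme of the urea cycle, fell as well.

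Classes of secreted liver proteins leaned downward with small changes. Of 28 tested acute phase and plasma transport proteins 8 fell and 0 rose, of 36 complement and coagulation genes 9 fell and 1 rose, and of 24 apolipoproteins and lipoprotein assembly genes 10 fell and 1 rose. The falls are 28.6%, 25% and 41.7% of these classes, beside 20.4% of all genes. With all tested genes in 5 equal groups by mean level, 28.7% and 31.3% fell in the 2 highest. These groups began at 35.8 and 82.1 CPM, and the classes had median levels of 296, 54.6 and 45.9 CPM, in that order. With spike-in scaling 0, 0 and 1 fell and 0, 0 and 1 rose. AHSG, fetuin-A, had 3099.8 and 2818 CPM at 0 min and 2386 and 2110.4 CPM at 240 min, and APOM had 196 and 176 CPM at 0 min and 140.3 and 133 CPM at 240 min. LIPG, endothelial lipase, rose by 0.87 and MBL2 by 0.71. These counts depended on single libraries. Without 0 min replicate 2 the falls numbered 3, 3 and 2, without 240 min replicate 2 they were 5, 2 and 6, and without 240 min replicate 1 the first was 13. Albumin, which was not called, had 18563 CPM in 240 min replicate 1 and 13892 in replicate 2, with 20238 and 19528 at 0 min. Hepatocyte transcription factors rose in 8 of 29 and fell in 5, whereas with spike-in scaling 1 rose and 4 fell. The 8 and 5 are 27.6% and 17.2%, beside 20.6% and 20.4% of all genes. CEBPA, a factor of hepatocyte differentiation, had 18.1 and 18.9 CPM at 0 min and 41.9 and 38.9 CPM at 240 min (log2 fold change 1.12, standard error 0.088, adjusted p = 1.31e-08, edgeR), and HNF4A was 0.30 higher on the log2 scale. CEBPD, HNF4G and the bile acid-induced corepressor NR0B2 fell by 0.74, 0.67 and 0.67. Bile acid synthesis and transport genes fell in 10 of 25 and rose in 2, and the falls numbered 5 without 0 min replicate 2, 6 without 240 min replicate 1 and 2 with spike-in scaling. Nuclear-encoded subunits of oxidative phosphorylation fell in 15 of 79 (18.99%, under the 20.4% of all genes) and rose in 6 (7.59%), with 0 and 0 under spike-in scaling, led downward by NDUFS7 (-0.53), and 5 fell without 0 min replicate 1 or without 240 min replicate 1.

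Of 18 SR splicing factors and CLK kinases 8 rose and 5 fell (3 and 1 with spike-in scaling). SRSF7 had 97.9 and 90.2 CPM at 0 min and 171 and 179.4 CPM at 240 min, CLK1, a kinase of SR proteins, had 50.9 and 51.9 CPM at 0 min and 93.7 and 93.5 CPM at 240 min, and SRSF2 rose by 0.70. TRA2A fell by 0.58. Of 34 mRNA decay factors 15 fell and 7 rose, which are 44.1% and 20.6%, beside 20.4% and 20.6% of all genes. With spike-in scaling 3 fell and 2 rose, and 9 fell without 0 min replicate 2. CNOT8, a deadenylase of the CCR4-NOT complex, had 60.1 and 61.7 CPM at 0 min and 30.1 and 29.8 CPM at 240 min, and BTG1, which recruits that complex, fell by 0.89, whereas ZFP36 and ZFP36L1, proteins that direct AU-rich mRNAs to decay, rose by 0.86 and 0.68.

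The largest single class was that of zinc finger genes with a ZNF number, most of which encode transcriptional repressors of the KRAB family. Of 445 tested 169 rose (38.0%) and 50 fell (11.2%), with a median of 0.18 at a median level of 11.5 CPM. The median of the class was already 0.10 at 5 min, when 0 genes of all tested were called. It was -0.04 and -0.02 at 10 and 30 min. The number that rose was between 124 and 145 with any 1 library left out, and with spike-in scaling 24 rose and 15 fell. ZNF367, one of the 15 largest rises, had 9.84 and 9.74 CPM at 0 min and 25.9 and 25.0 CPM at 240 min and had 10.2 and 12.9 CPM at 5 min, 12.96 and 14.7 CPM at 10 min and 15.8 and 14.04 CPM at 30 min in between. ZNF75A and ZNF625 rose by 1.35 and 1.27 from low levels, and ZNF880 and ZNF404 fell by 1.35 and 1.19, ZNF880 without a call in DESeq2 or without 240 min replicate 2. Such genes are similar in sequence and may share reads.

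The GC content of transcripts moved with the result. Transcript models gave both properties for 13312 tested genes (96.1%), which were divided into 5 equal groups. In the group with the lowest GC content 30.5% rose and 18.9% fell, with a median log2 fold change of 0.06, and in the highest group 11.4% rose and 22.9% fell, with a median of -0.07. ZNF genes had a median GC content of 42.9%, where the median of all tested genes was 48.5%. When smooth trends of each library on GC content and length were removed, a setting added after the data were seen, 166 ZNF genes rose and 53 fell, 34 ribosome biogenesis genes rose and 2 fell, and 2 ribosomal protein genes rose and 33 fell. By length, the share that rose went from 12.9% in the shortest group to 23.8% in the longest and the share that fell from 13.9% to 27.8%. All tested genes were also divided by mean level over the 4 libraries compared. From the lowest to the highest of 5 groups, the share that fell went from 5.34% to 31.3% and the share that rose from 9.89% to 22.2%.

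**Figure D5:**
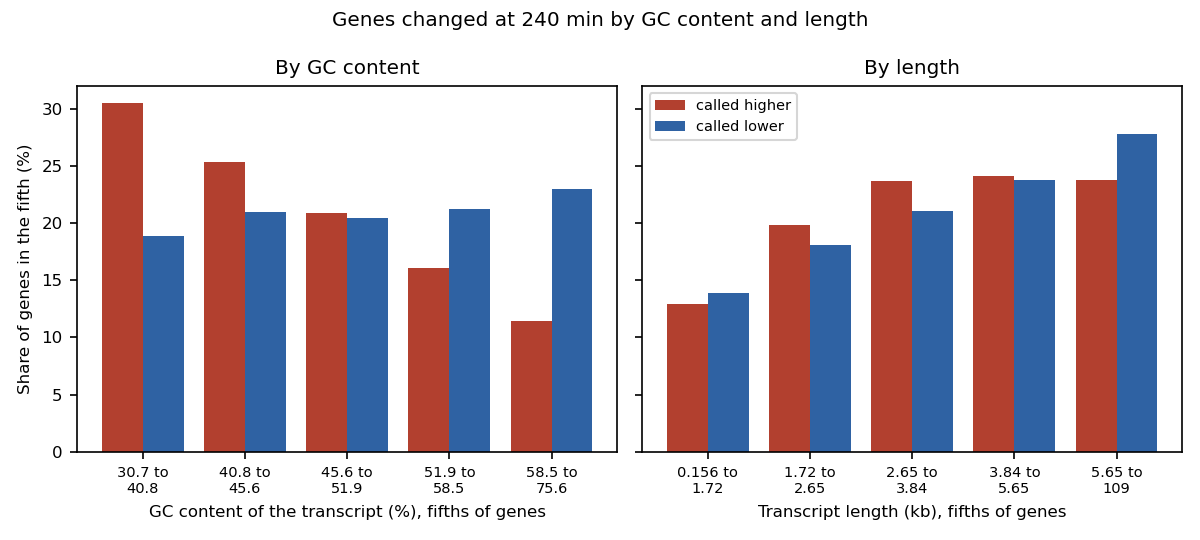
Share of genes called higher (red) and lower (blue) at 240 min in 5 equal groups of genes by the GC content in percent (left) and the length in kb (right) of their transcripts. The share called higher falls from 30.5% to 11.4% from low to high GC content, and both shares are lowest among the shortest transcripts.

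In the chromatin immunoprecipitation of the insulin receptor, which is 1 library without a replicate, a peak was counted at a gene when it lay within the gene body extended by 5 kb. Of all 13847 tested genes with a position 15.7% had a peak, as did 14.96% of genes that rose (95% Wilson interval 13.7% to 16.3%), 20.5% of genes that fell (19.1% to 22.03%) and 14.3% of genes not called. Intervals cover counting error only. Genes that fell had a higher share in each of 3 equal groups by expression, 16.8%, 21.0% and 21.2% from low to high, beside 11.4%, 16.4% and 19.4% of all genes in these groups. They also spanned more of the genome, with a median of 37050 bases against 25844 over all tested genes, and the part of gene length in the difference was not tested.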

How the data were processed

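RNA-seq of HepG2 cells at 5 times of insulin (n = 2 libraries each) and 1 insulin receptor chromatin immunoprecipitation were used. The authors trimmed reads with Trim Galore 0.6.4, aligned them to hg19 with STAR 2.6.1d and deposited raw counts per gene from featureCounts 1.6.4, counted on the reverse strand. They also deposited TPM values from StringTie, used here for gene positions and for an alternative test. Peaks, called by the authors with MACS2 2.2.7.1 on BWA 0.7.17-r1188 alignments, carry a deposited peak score. The label text on extraction of the RNA libraries describes DNA, whereas the paper names the KAPA HyperPrep stranded RNA kit for them.

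Rows without a gene name, the ERCC spike-ins (1.59% to 2.36% of counts), entered neither library sizes nor tests. The 10 RNA libraries were fitted in 1 model with time as the factor (edgeR 4.0.16 in R 4.3.3, TMM, filterByExpr, quasi-likelihood test), and 240 min was compared with 0 min. The fit was tested on simulated data. Standard errors were derived from the F statistic. Alternatives used DESeq2 1.42.0, limma 3.58.1 on log2(TPM + 1) or log2(TPM + 0.1), where fold changes of low genes are understated, other scalings and filters, a replicate block and each library left out. An alternative that removed GC and length trends (loess span 0.3) was chosen after seeing the data.

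Named genes were the 15 largest rises and 15 largest falls, and up to 3 called members per list and direction. The rises and falls were taken from called genes whose libraries did not overlap. Their mean over the 4 libraries compared had to be at least 5 CPM. Some other genes were named with their values known. Some genes that this rule names are not reported here. The members and the 64 lists were chosen with earlier results of these data known. Replicate numbers are not stated to pair libraries. Replicate libraries were distinct, as chi-square between their counts divided by its degrees of freedom was 2.86 to 6.46.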

Additional observations from a re-analysis of the deposited data

How the results depend on the processing

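Of the alternatives, spike-in scaling moved the results most, with 1059 genes called against 5676, and 17 against 30 of 63 classes with more members higher than lower. The other alternatives called 4430 genes (DESeq2) to 5877 (likelihood ratio test), and leaving out 1 library called 3893 to 4884, with 29 to 31 such classes. No gene called in both changed direction in any of them. RPS28 changed sign with limma on TPM, at -0.23 in each of the 3 TPM settings, and RPS3A at -0.0205 in each. Genes that fell had a receptor peak in 18.6% with bodies extended by 1 kb, 26.5% with 20 kb and 11.7% with peaks scored above the median, against 20.5%, and genes that rose in 13.3%, 19.3% and 7.90%, against 14.96%. The 30 largest rises and falls kept their call in all 17 settings.

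With the replicate number as a block 5845 genes were called. The deviations of same-numbered libraries correlated between -0.36 and 0.33 across times, and 0.00123 between 0 and 240 min, with no common sign, so the numbers were not taken to pair the libraries. The causes of these differences were not tested. With 2 libraries per time, the spread rests on few degrees of freedom.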

Other observations

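In glucose handling outside glucose production, 6 of 29 tested genes of transport and glycolysis rose and 5 fell (20.7% and 17.2%, about the 20.6% and 20.4% of all genes, and 1 and 1 with spike-in scaling). The transporters moved in different directions. SLC2A2, the hepatocyte glucose transporter GLUT2, had 68.5 and 72.8 CPM at 0 min and 46.2 and 43.7 CPM at 240 min, and SLC2A3, the high-affinity transporter GLUT3, had 94.9 and 92.7 CPM at 0 min and 144 and 164 CPM at 240 min. The libraries of the 2 times did not overlap in either gene, with log2 fold changes of -0.66 and 0.71, and both calls held in all 17 other settings. PFKFB3 and PFKFB4, which make the activator of phosphofructokinase, rose by 0.80 and 0.54. In glycogen metabolism 4 of 20 rose and 4 fell, 20% each beside 20.6% and 20.4% of all genes, and 0 and 0 were called with spike-in scaling. The largest rises there were in the glycogen-targeting phosphatase subunits PPP1R3C (0.66) and PPP1R3E (0.59). Of 5 alpha-arrestins, adaptors that remove transporters and receptors from the cell surface, TXNIP (-0.70) and ARRDC3 (-0.90) fell and ARRDC4 (0.37) rose, and with spike-in scaling 2 fell and 0 rose.

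Among 46 tested integrins, laminins and related genes 9 fell and 4 rose (19.6% and 8.70%, beside 20.4% and 20.6% of all genes, and 3 and 0 with spike-in scaling). ITGA2, the integrin subunit of the collagen receptor, had 431 and 400.1 CPM at 0 min and 231 and 280.2 CPM at 240 min, without overlap, and LAMB2 fell by 0.44. Cell junction genes fell in 12 of 33 and rose in 6 (1 and 1 with spike-in scaling), with CLDN12 lower (-0.55) and TJP3 higher (0.85). The 12 and 6 are 36.4% and 18.2%, beside 20.4% and 20.6% of all genes. In the hypoxia list 6 of 22 rose and 6 fell, 27.3% each beside 20.6% and 20.4% of all genes (1 and 2 with spike-in scaling). KDM3A (-0.51) and NDRG1 (-0.49) fell, and DDIT4 (0.91) and the pyruvate dehydrogenase kinase PDK1 (0.61) rose. Of 18 circadian clock genes 7 rose and 2 fell, among them BHLHE41 (1.29, from 0.388 to 0.933 CPM, not called with DESeq2), TEF (0.69) and PER2 (0.58). With spike-in scaling 0 rose and 0 fell, and 3 rose without 0 min replicate 2. Mediator and RNA polymerase II genes fell in 11 of 45 (24.4%, near the 20.4% of all genes) and rose in 4 (2 and 0 with spike-in scaling), and the falls numbered 4 without 0 min replicate 2. MED12, of the Mediator kinase module, had 59.9 and 63.1 CPM at 0 min and 42.1 and 41.2 CPM at 240 min. Of 20 tested replication-dependent histone genes 5 fell (25%, beside 20.4% of all genes) and 0 rose (1 and 0 with spike-in scaling). Levels were near or under 1 CPM for the largest falls, and 1 fell when GC and length trends were removed.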
